A study of Macaca fascicularis with 4 samples.

Results

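The 7 genes described here encode the precursors of secreted peptides: the natriuretic peptides NPPA and NPPB, the endothelins EDN1 and EDN3, neurotensin (NTS), somatostatin (SST) and CGA, the alpha subunit that the glycoprotein hormones share. They were taken by symbol from the 26222 named gene rows of the count tables, and each of the 7 had a row in all 4 libraries. They were selected on their UMI counts and shares of barcodes in these same libraries (UMIs, unique molecular identifiers, are counted RNA molecules), so their levels by stage and by cell group are a description and carry no test. The set was labelled as peptide hormone genes of early mesoderm. The data go against that label for part of the UMIs of some members. At E37, 79.2% of SST UMIs lay in a cluster rich in chromaffin genes. At E24, 36.0% of NPPB UMIs, and part of those of CGA and EDN1, lay in clusters rich in liver or yolk sac genes.

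The libraries came from cynomolgus monkey (Macaca fascicularis) embryos and were made with droplet-based 10x single-cell 3′ RNA-seq, with 1 library for each stage. The E24 library (Carnegie stage 11) was labelled with a pair of embryo codes and held the trunk after the yolk sac, amnion, heart and anterior tissue and the posterior growth zone were cut away. The E28 (stage 13) and E31 (stage 14) libraries, with 1 embryo code each, held mesonephros and urogenital ridge, with some proximal mesentery and the coelomic lining. The E37 library (stage 18), also with 1 code, held mostly gonadal ridge, with most of the mesonephros and mesentery trimmed and putative adrenal tissue attached. No treatment or genotype was named for any of these embryos. Stage, embryo and dissected tissue changed together, so they cannot be told apart, and a difference between stages here is a difference between 2 libraries.

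The 4 libraries held 10639, 5028, 6661 and 5293 barcodes (putative cells) at E24, E28, E31 and E37, with median depths of 9990, 11391, 9766 and 6674 UMIs per barcode. Pairs of libraries shared between 37 and 111 barcode sequences. All intervals are exact 95% intervals for counting error only, and they say nothing about the spread between embryos. Levels are UMIs scaled to a total of 1000000 UMIs of the library or cell group (CPM). A library with 0 UMIs of a gene allows a level of up to 3 counts, which is 0.0260 CPM at E24, 0.0480 at E28, 0.0415 at E31 and 0.0746 at E37.

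Peptide hormones are made as long precursors that proprotein convertases cut, and they act on receptors of nearby or distant cells. Natriuretic peptides, made in adults mainly by the heart, bind guanylyl cyclase receptors and promote sodium excretion and vessel relaxation. Endothelins, cut to their active form by endothelin-converting enzymes, act on G-protein-coupled receptors, constrict vessels and guide neural crest cells. Neurotensin and somatostatin are known from gut endocrine cells and neurons, and somatostatin restrains the release of other hormones. CGA pairs with a hormone-specific beta subunit in the pituitary and placenta.

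Each member followed its own course over the stages. NPPA had 940 UMIs at E24, 5 at E28, 5 at E31 and 0 at E37, which is 8.15, 0.0800, 0.0692 and 0 CPM. CGA was likewise a gene of the E24 library, with 779 UMIs there, 0 at E28, 4 at E31 and 0 at E37, or 6.75, 0, 0.0554 and 0 CPM. Almost all UMIs of both genes therefore came from the youngest library, and their levels in the 3 later libraries did not differ beyond the counting intervals.

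NPPB had 9.92 CPM at E24, 7.79 at E28, 9.90 at E31 and 0.149 at E37, where 6 UMIs were counted. Its E24 and E31 levels did not differ beyond counting error, with intervals of 9.35 to 10.5 and 9.19 to 10.7 CPM. SST stood at 2.99 CPM at E24, 9.20 at E28, 18.7 at E31 and 6.44 at E37. SST was thus highest at E31 and lowest at E24, and no 2 of its 4 intervals overlapped.

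NTS went up and down between libraries, with 0.884 CPM at E24, 23.4 at E28, 1.80 at E31 and 9.47 at E37. EDN1 had 2.82 CPM at E24, 2.82 at E28, 5.33 at E31 and 8.43 at E37, so the first pair was alike within counting error and the later libraries were higher. EDN3 had 8.99 CPM at E24, 69.3 at E28, 53.3 at E31 and 52.7 at E37. The E31 and E37 levels of EDN3 overlapped (51.7 to 55.1 and 50.5 to 55.0 CPM), and E24 stood apart below the others.

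**Figure D1:**
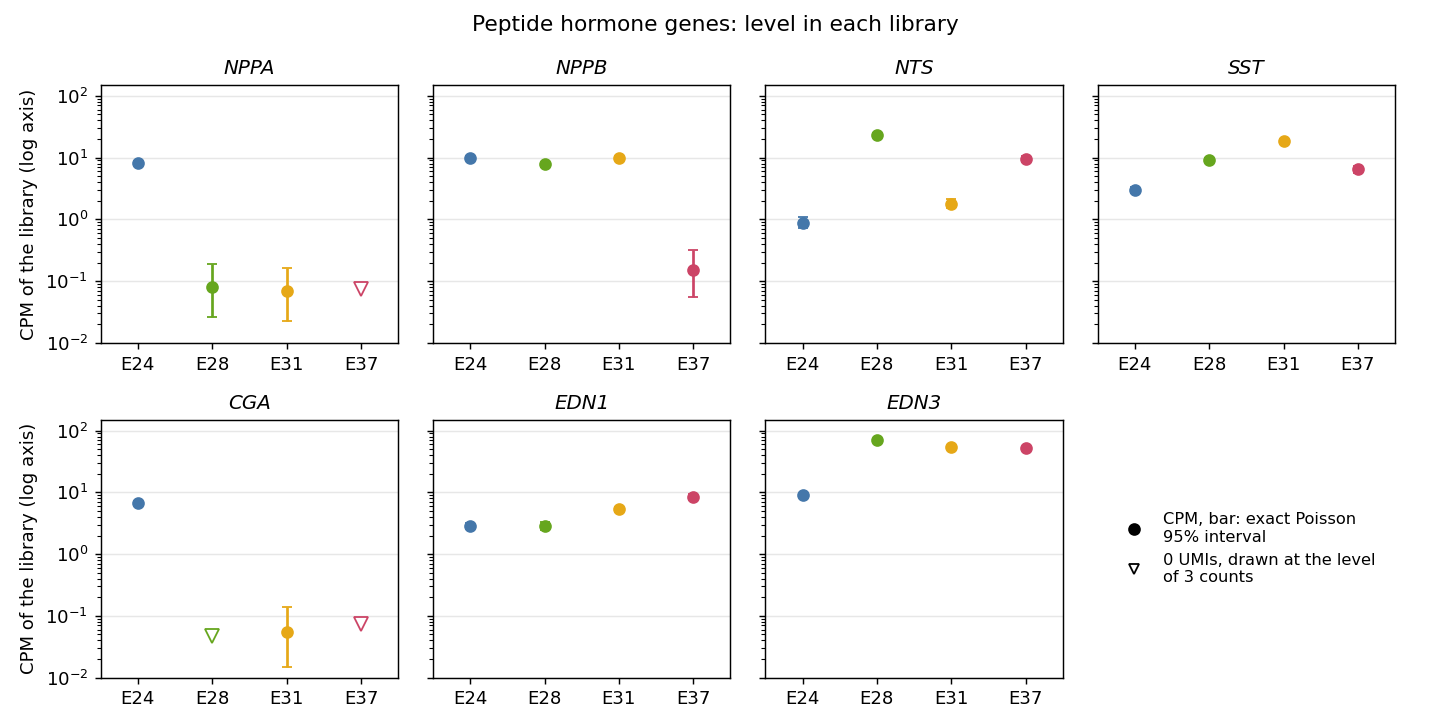
CPM (log axis) of each member in the E24, E28, E31 and E37 libraries, with exact Poisson 95% intervals. Open triangles mark 0 UMIs, drawn at the level of 3 counts: NPPA and CGA sit near the floor after E24, and NPPB near it at E37.

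Between neighbouring stages a gene was taken as measured with at least 50 UMIs in the higher library and called at a 2-fold ratio. At E28 against E24, 3 of 7 measured members were called higher, beside 15.5% of all measured genes. These were NTS (26.4-fold, 21.6 to 32.6), EDN3 (7.70-fold, 7.20 to 8.25) and SST (3.08-fold, 2.69 to 3.53). Another 2 were called lower, beside 6.23% of all genes: NPPA was 102-fold lower (43.5 to 314) and CGA at least 141-fold lower, taking the 0 UMIs at E28 as 3 counts. The median gene was 0.22 higher at E28 on the log2 scale. With median-of-ratios scaling, 59.1% of called genes were higher at E28, against 71.4% on the total, and the member calls were the same in number, 3 higher and 2 lower.

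At E31 against E28, 5 members were measured. SST alone was called higher, 2.03-fold (1.84 to 2.24), beside 1.15% of all genes. EDN1 lay just under the line at 1.89-fold (1.58 to 2.27). NTS alone was called lower, by 12.98-fold (10.8 to 15.6), beside 2.66% of all genes. SST is no longer called at a 3-fold line, and leaving out likely doublets put EDN1 over the 2-fold line at a log2 ratio of 1.12.

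At E37 against E31, NTS was called higher among 5 measured members, 5.26-fold (4.30 to 6.47), beside 8.31% of all genes. NPPB was 66.4-fold lower (30.3 to 181) and SST 2.90-fold lower (2.54 to 3.33), beside 8.24% of all genes called lower. The median gene differed by -0.07 on the log2 scale at this step and by -0.06 at the step before. Since the members were picked for such levels, these counts are not read as enrichment.

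The members differed in how widely and how strongly single cells carried them. EDN3 was broad, with at least 1 UMI in 6.66% of barcodes at E24, 32.5% at E28, 26.3% at E31 and 23.1% at E37, and a mean of 1.46 to 2.65 UMIs in the barcodes that had any. Each barcode reduced to 2000 UMIs, the expected shares were 1.61%, 11.5%, 9.21% and 9.51%, so E24 was also lowest at equal depth. SST at E37 was the opposite case, in 32 barcodes (0.605%, 0.414 to 0.852) with a mean of 8.09 UMIs each.

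A few barcodes held much of several genes. At E37 the 10 richest barcodes carried 87.6% of all SST UMIs and 59.3% of all NTS UMIs, and single barcodes reached 85 and 115 UMIs. Without the richest barcode, SST at E37 was 4.33 CPM and NTS 6.62 CPM, and both stage calls remained, with SST 3.98-fold lower and NTS 3.89-fold higher than at E31. The highest single counts of the other genes were 35 for NPPA and 23 for CGA at E24, 88 for NPPB at E24, 43 for EDN1 at E31 and 18 for EDN3 at E28.

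**Figure D2:**
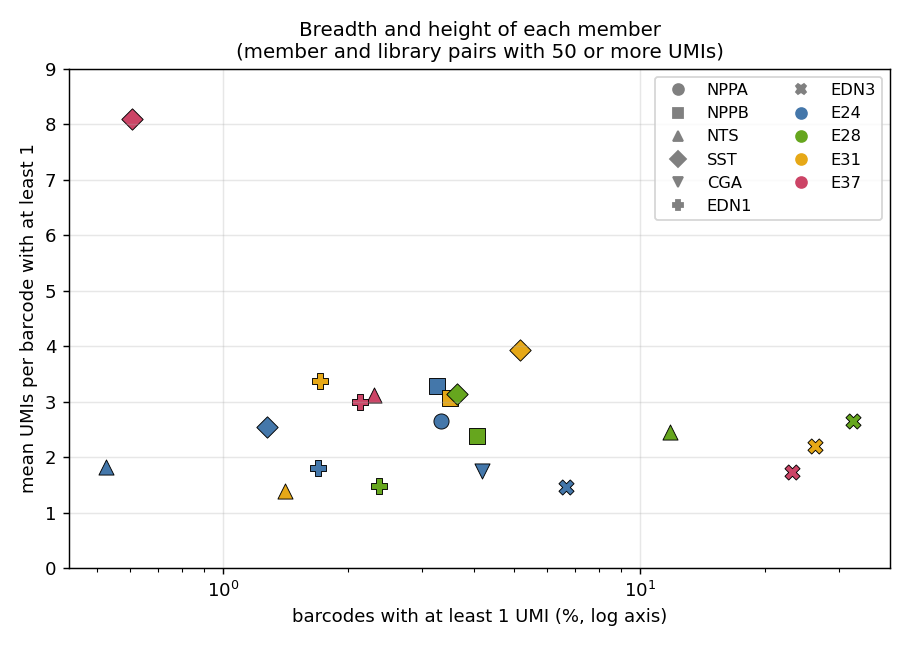
Share of barcodes with at least 1 UMI (%, log axis) against the mean UMIs per such barcode, for the 21 pairs of member and library with 50 or more UMIs. EDN3 lies at the broad, low side from E28 on and SST at E37 at the narrow, high corner (0.605% of barcodes, mean 8.09 UMIs).

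Free RNA in the droplets was gauged in blood cells, which are not known to make most of these peptides. In erythroid-like clusters, whose barcodes were deeper (median 31407 UMIs against 11391 in all barcodes at E28), 6.25% had an EDN3 UMI at E28 against 32.5% of all barcodes. NTS reached 4.17% of E28 erythroid-like barcodes against 11.8% of all, and at E37 no erythroid-like barcode of 111 had an NTS, SST or EDN1 UMI, which allows a share of up to 2.70%. SST at E31 had a UMI in 4.17% of 48 erythroid-like barcodes (median 28371 UMIs) and in 5.16% of all barcodes (median 9766 UMIs). Thinned to 2000 UMIs per barcode, these shares were 0.245% and 1.998%. In the top SST cluster of E31, 24.1% of the barcodes had a UMI before thinning. EDN1 in macrophage-like clusters was above its level in all barcodes, with 14.9% of 47 barcodes at E28 and 10.6% of 94 at E37, against 2.37% and 2.13% of all barcodes.

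The barcodes were clustered in each library without the 7 members, which gave 102 clusters. A cluster was called by a cell type with "-like" only where at least 2 of its 10 leading genes and 40% of that type's markers fitted. The other clusters are named by number and leading genes.

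NPPA at E24 was concentrated in cells of the presomitic and somitic type. Cluster 6, 496 barcodes led by FGF17, PPP1R17 and HES7 and also by TBX6 and DLL1, genes of the segmentation clock and presomitic mesoderm, held 54.3% of NPPA UMIs at 103.9 CPM. Cluster 5, somite-like and led by FST, FMOD and DMRT2, held another 24.3% at 19.7 CPM. The median cluster of that library was at 0.986 CPM.

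The highest NPPA level, 261 CPM, was in cluster 10, 35 barcodes led by CRABP1, TUBB3 and STMN2, which are genes of young neurons. It rested on 62 UMIs in 8 barcodes, with 35 in 1 of them. Cardiac muscle is the best known source of NPPA, and its markers were low in these cells. In cluster 10, MYH6, ACTN2, NKX2-5, TBX5 and RYR2 were at 0, none of the 8 cardiomyocyte markers in the tables reached 10 CPM and their sum was 12.6 CPM. MYH7 and TNNT2, also listed as cardiomyocyte markers, had no gene row by these symbols and could not be read. In cluster 6 MYL4 and TNNI3 reached 10 CPM, MYH6, NKX2-5 and RYR2 were at 0 and the sum was 38.5 CPM.

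Barcodes with at least 2 NPPA UMIs (157 at E24) carried the somite boundary genes together with the peptide. RIPPLY1, a repressor that ends the presomitic programme, had 836 CPM in them against 15.4 CPM in all other barcodes, a ratio of 54.2 (50.6 to 58.1). RIPPLY2 was 52.3-fold higher (41.0 against 0.784 CPM) and MESP1, a factor of forming somites, 22.5-fold higher (86.4 against 3.83 CPM). WIF1, a secreted Wnt inhibitor, was 25.7-fold higher, and PRL, which encodes prolactin, 24.8-fold higher at 28.6 against 1.15 CPM.

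NPPB lay mostly in other cells than NPPA, although the 2 genes are direct neighbours in the T2T-MFA8v1.1 annotation. At E24, 355 barcodes had NPPA, 348 had NPPB and 3 had both. An NPPB UMI was thus in 0.845% of NPPA barcodes, against 3.35% of all other barcodes. At E24 the highest NPPB level was in cluster 14, hepatocyte- or yolk-sac-like and led by FGB, SPINK1 and TTR, with 73.0 CPM and 36.0% of the UMIs. These 412 UMIs lay in 51 of 437 barcodes, with 88 in 1 of them. Next came cluster 20, led by NR0B1, DLK1 and ALDH1A2, at 62.5 CPM, and cluster 11, led by DCN, COL1A1 and COL3A1, at 58.5 CPM.

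Cluster 11 also had MYL7, a muscle myosin light chain of the atrium, among its leading genes, and it was the cluster with the most MYL7 in the library (299.6 CPM), with 5 of the 8 cardiomyocyte markers at 10 CPM or more, MYH6 at 0 and a sum of 414 CPM. In cluster 14 the sum was 25.7 CPM, with NKX2-5 at 0, and the part of heart muscle cells in the NPPB levels was not tested. At E28 NPPB was highest in smooth-muscle-like cluster 18 (83.5 CPM, 84 barcodes), followed by collagen-rich clusters 2, 9 and 15 at 35.5, 35.4 and 25.8 CPM. In cluster 18, 1 barcode held 39 of the 80 NPPB UMIs. At E31 NPPB was highest in cluster 11, led by TAGLN, COL3A1 and TGFBI (73.5 CPM). It stood at 40.3, 35.9 and 29.6 CPM in clusters 2, 6 and 1, all led by TNC, COL3A1, DLK1 or LUM. The 214 UMIs of cluster 11 lay in 23 of 376 barcodes (6.12%), with 57 in 1 of them. In clusters 2, 6 and 1, 14.1%, 13.8% and 16.0% of barcodes had an NPPB UMI. At E37 the smooth-muscle-like cluster of 133 barcodes held 1 NPPB UMI.

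The 148 E24 barcodes with at least 2 NPPB UMIs had 122 CPM of ANKRD1, a stretch-responsive muscle gene, against 5.12 CPM in all others, a ratio of 23.8 (20.3 to 27.8). CRHBP, which binds corticotropin-releasing hormone, was 13.7-fold higher, and TAGLN, an actin-binding protein of smooth muscle, was 9.78-fold higher. TTR and APOA1, plasma proteins of liver and yolk sac, were 7.70-fold and 7.52-fold higher. ANKRD1 was also the gene with the profile nearest to NPPB over 99 clusters of at least 20 barcodes, at a Pearson r of 0.73 of log2(CPM + 1). Such values are descriptive, since clusters of 1 library share its depth and its free RNA.

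NPPB and EDN3 were often found in the same barcodes. At E28, 67.3% of the 205 NPPB barcodes had an EDN3 UMI, against 31.0% of all other barcodes, and at E31 63.9% of 233 did, against 25.0%. The NPPB barcodes were deeper in both libraries, with medians of 13258 against 11282 UMIs at E28 and 12187 against 9687.5 at E31, and the part of depth in this was not tested. At E24 the shares were 14.4% and 6.40%.

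EDN1, the vascular endothelin, was highest in endothelium-like cells in all 4 libraries. The endothelium-like cluster of each library had the highest level, with 44.5 CPM at E24 (cluster 0), 16.7 at E28 (cluster 8), 68.9 at E31 (cluster 16) and 1112 at E37 (cluster 23). It held 47.4%, 31.3%, 69.4% and 57.8% of all EDN1 UMIs. The E37 value came from 21 barcodes led by RNASE1, GJA5 and CDH5, of which 19 had EDN1. The larger E37 endothelium-like cluster 0 led by CLDN5, APLNR and CDH5 had 16.2 CPM. At E24 the liver- or yolk-sac-like cluster 14 was second to the endothelium, with 14.2 CPM and 24.6% of the UMIs.

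Among the 42 E37 barcodes with at least 2 EDN1 UMIs, the arterial connexin GJA5 had 489 CPM against 2.51 CPM in all others (ratio 195, 153 to 249). GJA4, also an arterial connexin, was at 279 against 1.33 CPM, and VWF, a clotting factor carrier of endothelium, at 182 against 2.69 CPM. Glial clusters 1 and 16 at E37, led by CAPS, held EDN1 too, at 30.4 and 16.8 CPM. RNASE1, ECSCR and GJA4, all endothelial, had the EDN1-like profiles over clusters, with r of 0.73, 0.73 and 0.72.

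EDN3, a ligand known for its action on neural crest, was carried by many clusters from E28 on. Genes such as COL3A1, DLK1 and TNC led its highest clusters at E28 and E31, and SULT1E1 led those with most of its UMIs at E37. At E24 it was highest in cluster 27, trophoblast- or amnion-like and led by WFDC2, CST6 and GABRP (63.8 CPM, 67 barcodes), though only 5.98% of UMIs lay there. Cluster 20, led by NR0B1, DLK1 and ALDH1A2, followed at 49.7 CPM, and splanchnic-mesenchyme-like cluster 8, led by HLX, HAND1 and LUM, at 34.8 CPM held the most UMIs, 26.5%. These 3 were the clusters above 20 CPM at E24.

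At E28 7 of 22 clusters reached 100 CPM, led by cluster 9 (TNC, DLK1, COL3A1) at 315 CPM, where 90.1% of 212 barcodes had a UMI. At E31 a cluster with the same leading genes, cluster 2, was again highest at 266 CPM. At E37 the top cluster was 27, led by KCNAB1, TAC1 and LRRN1, at 255 CPM in 58 barcodes, while SULT1E1-led clusters 4 and 5 held 22.7% and 21.6% of the UMIs at 166 and 144 CPM. The profiles nearest to EDN3 were those of NTRK2, a neurotrophin receptor, PLAGL1, an imprinted zinc finger gene, and TWIST2, a mesenchymal transcription factor, with r of 0.77, 0.75 and 0.75.

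Barcodes with at least 2 EDN3 UMIs at E28 (971) had 5.74-fold more TBX18, a gene of coelomic and ureteric mesenchyme, at 30.5 against 5.31 CPM. HAND1 was 7.39-fold and TECRL 6.13-fold higher, both below 10 CPM. DLK1, an imprinted gene of embryonic mesenchyme, was 4.57-fold higher at 2114 against 463 CPM. The ratios were smaller than those of the other members, whose positive barcodes were fewer.

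NTS lay mainly in tubule-like cells at E28 and in endothelium-like cells at E37. At E28 mesonephric-tubule-like cluster 6, led by FXYD2, LGALS2 and ALDH1A1, had 157 CPM and 41.2% of UMIs. Cluster 5 (CALB1, ALDH1A1, TMEM52B) had 94.1 CPM and cluster 1 (C6H5orf38, PAPPA2, IRX2) had 94.01 CPM. At E31 the tubule-like cluster 4, led by the same 3 genes in another order, had 4.69 CPM, with 8 UMIs in 188 barcodes, and no cluster reached 10 CPM.

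At E37 endothelium-like cluster 0 had 145 CPM of NTS and 68.0% of the UMIs, in 34 of 175 barcodes. At E24 the endothelium-like cluster was also highest, at 12.1 CPM with 42 UMIs in 10 barcodes, 23 of them in 1. The 279 E28 barcodes with at least 2 NTS UMIs carried SLC13A1, a sulfate transporter of the proximal tubule, at 18.05 against 0.357 CPM (ratio 50.5, 30.5 to 86.8). HNF4A, a transcription factor of proximal tubule and gut, was 13.3-fold higher, LGALS2 12.9-fold and TINAG, a basement membrane protein of tubules, 13.6-fold. PLA2G12B was 17.7-fold higher.

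SST was found in podocyte-like cells of the mesonephros and later in chromaffin-type cells. Podocyte-like cluster 10 at E28, with CLDN5, CLIC5 and PTPRO among its leading genes, had 91.4 CPM and 62.4% of UMIs, and cluster 17, also podocyte-like, 27.2 CPM. At E31 podocyte-like clusters 7 and 14 had 152 and 80.6 CPM and together 73.3% of UMIs. Cluster 12, led by MAL, CCL26 and FXYD2, added 51.3 CPM.

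Even in podocyte-like cluster 7, 24.1% of 464 barcodes had an SST UMI. The E31 barcodes with at least 2 SST UMIs (163) had 5.94-fold more TCF21, a transcription factor of podocytes (551 against 92.7 CPM). CLRN1 was 10.3-fold and BTBD16 7.71-fold higher.

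The sympathoadrenal-like cluster 6 of E37, led by CHGA, CHGB and TUBB3, had 308 CPM of SST and 79.2% of its UMIs, in 11 of 107 barcodes. Cluster 20, with TUBB3 and TLX2 among its leading genes, had 80.9 CPM in 3 of 56 barcodes. At E24 the neuron-gene cluster 10 was highest at 223 CPM, but its 53 UMIs came from 2 barcodes, and clusters 11 and 19, both with COL1A1 and COL3A1 among their leading genes, held 33.3% and 27.2% of UMIs at 27.5 and 20.03 CPM. Of 10 pancreatic and gut endocrine markers, none reached 10 CPM in the top podocyte-like clusters of E28 and E31. INSM1 and ISL1 did in E37 cluster 6, where the other 8 were at 0, and 5 did in E24 cluster 10, where PAX4, HHEX and PDX1 were at 0.

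CGA at E24 was spread over liver- or yolk-sac-like cells and PITX1 mesenchyme. Cluster 23, led by TTR, APOA1 and AFP, was highest at 108 CPM, in 22 of 41 barcodes. Cluster 3, led by PITX1, HOXA10 and CDX4, held the most UMIs, 29.8%, at 53.0 CPM. Cluster 19, also led by PITX1, had 28.5 CPM, and cluster 14 (FGB, SPINK1, TTR) had 22.5 CPM.

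The profiles nearest to CGA were those of UGT3A1, a glycosyltransferase, PITX1, a homeobox factor of hindlimb and pituitary, and RBP4, the retinol carrier, with r of 0.77, 0.73 and 0.73. The 158 barcodes with at least 2 CGA UMIs had 38.0-fold more RBP4 (1463 against 38.5 CPM), 37.7-fold more FGG and 30.2-fold more FGA, both fibrinogen chains, 33.1-fold more APOC3 and 42.5-fold more PRODH2. The pituitary beta subunits that CGA pairs with were near absent: FSHB had 0 UMIs in all libraries, and TSHB and LHB had 8 and 28 UMIs at E24. The chorionic beta subunits CGB3, CGB5 and CGB8 had no gene row by these symbols, so their levels could not be read. Of 9 pituitary markers, 6 were at 0 in each of clusters 23 and 3, POU1F1 and TSHB among them, and PITX1 had 717 CPM in cluster 3.

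**Figure D3:**
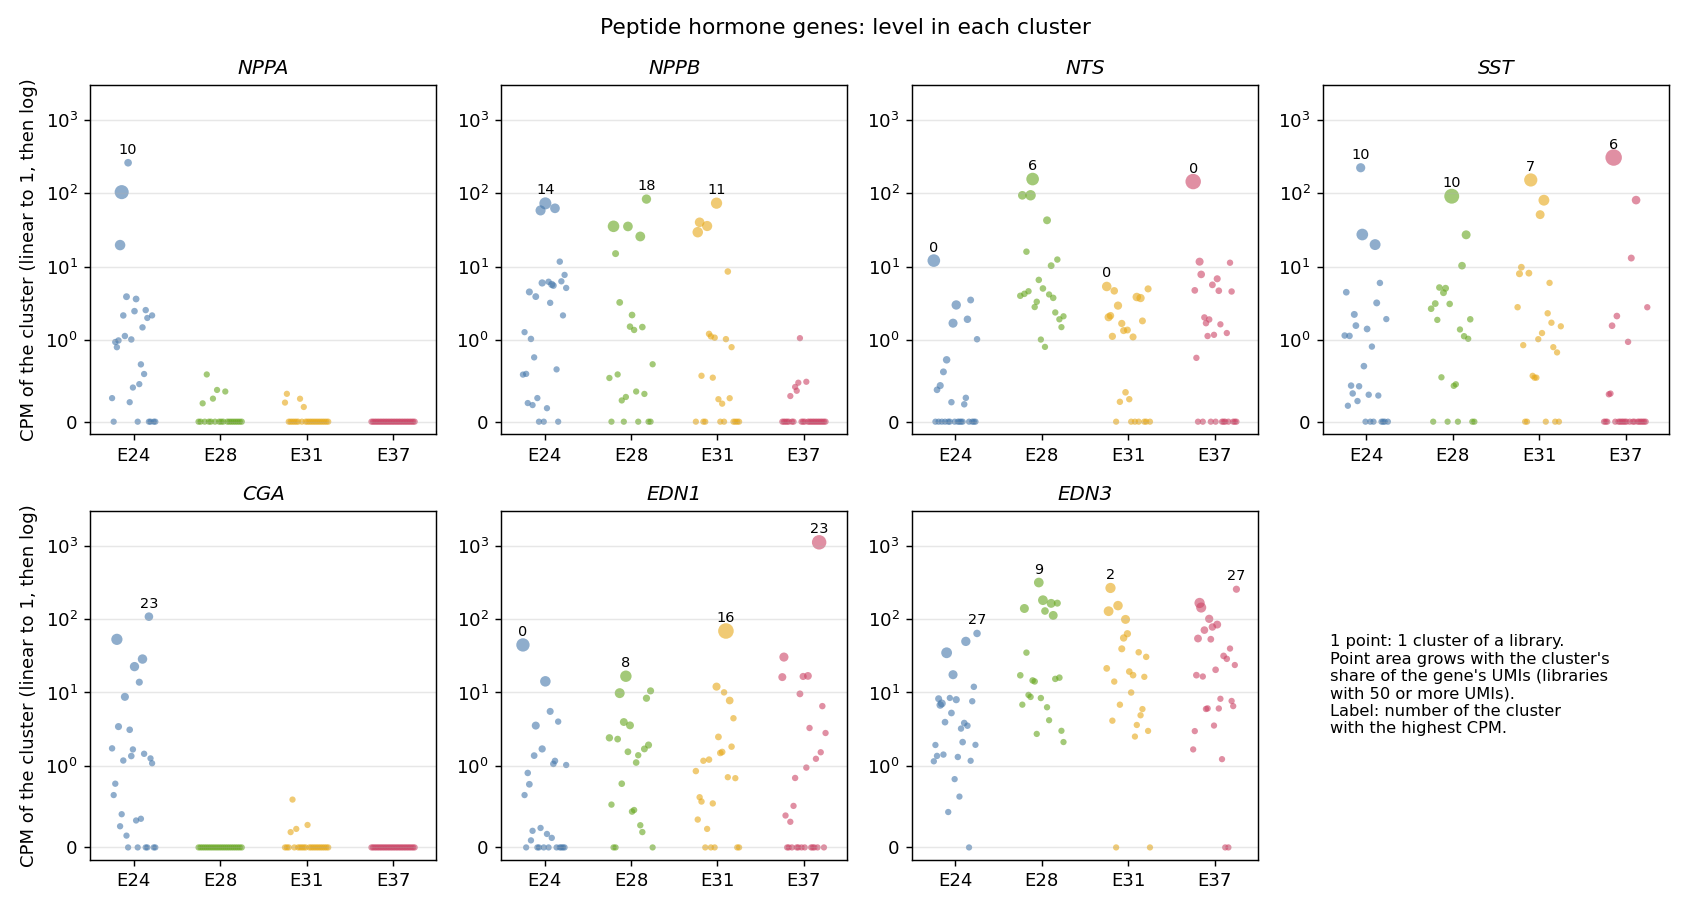
CPM of each member in every cluster of the E24, E28, E31 and E37 libraries (linear to 1, then log); the area of a point grows with the cluster's share of the gene's UMIs, and the top cluster of a library with 50 or more UMIs carries its cluster number. EDN1 peaks in endothelium-like clusters (0, 8, 16 and 23) at all 4 stages, whereas the top clusters of NTS and SST differ between stages.

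The 6 marker genes named for these members were used to group barcodes in a second way. They were not kept out of the clustering and are among the markers that named clusters, so the groupings are not independent. A marker set is all barcodes with at least 2 UMIs of the marker, set against all other barcodes of the library, and it was compared where it held at least 50 barcodes. PAX8 marks nephric epithelium, FXYD2 tubules, KRT19 simple epithelium, ACTA2 smooth muscle, PECAM1 endothelium and FOXF1 splanchnic mesenchyme. The sets overlapped, and KRT19 at E24 took in 5219 barcodes, 49.1% of the library, so there it did not single out an epithelium. The 18 sets gave 126 combinations of member and set, of which 84 were measured. Of these, 18 were called higher and 47 lower in the set. Over all genes and the same sets, 3.82% of measured combinations were called higher and 14.1% lower.

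EDN1 was called higher in the PECAM1 set of all 4 libraries. It had 54.6 CPM in PECAM1 barcodes against 1.67 in the others at E24 (32.6-fold, 26.0 to 40.9), with 6.95% of all genes called higher. At E28 it had 17.6 against 2.04 CPM (8.61-fold, 6.14 to 11.9), with a background of 6.99%, and at E31 69.5 against 1.80 CPM (38.7-fold, 31.1 to 48.3), with 7.09%. At E37 it had 116 against 3.51 CPM (33.1-fold, 26.5 to 41.4), with a background of 5.54%, and 21.2-fold more with other markers barred.

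Only 55 EDN1 UMIs lay in the E28 set, and the call there is lost with 46, 46, 45 or 45 UMIs when the richest barcode is left out, at least 3 marker UMIs are asked for, other markers are barred or doublets are removed, while the ratio stays between 7.23 and 8.08. Comparing PECAM1 sets of neighbouring libraries, EDN1 was 3.96-fold higher (2.95 to 5.39) at E31 than at E28, beside 0.879% of genes called higher. SST and EDN3 were called lower in the PECAM1 set of all 4 libraries, and NPPB in those of E24, E28 and E31. The sets held 5 of 6, 4 of 5, 3 of 4 and 2 of 4 measured members called lower at E24, E28, E31 and E37, beside 22.5%, 24.9%, 21.5% and 25.4% of genes.

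NTS joined EDN1 in the PECAM1 set at E37, with 141 CPM in PECAM1 barcodes against 3.48 in the others (40.4-fold, 32.6 to 50.2). Without the barcode that held 115 NTS UMIs the ratio was 21.7, and with 3 PECAM1 UMIs as the limit it was 25.9. At E28 the direction was the opposite, with 3.19 CPM in PECAM1 barcodes against 24.4 CPM, 7.65-fold lower. E24 and E31 had too few UMIs for a call, with 12.9 against 0.620 CPM and 3.71 against 1.69 CPM. Within PECAM1 barcodes NTS was 37.9-fold higher (22.2 to 70.3) at E37 than at E31, beside 1.36% of genes.

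The FXYD2 set carried NTS at E28, with 113 CPM in FXYD2 barcodes against 8.58 in the others (13.2-fold, 11.8 to 14.7) and 68.5% of all NTS UMIs. The ratio was 7.65 in the 134 FXYD2 barcodes with no other marker. It was the 1 of 5 measured members called higher, beside 7.34% of genes, and NPPB and EDN3 were called lower, beside 11.2%. At E31 the same set had 2.69 against 1.70 CPM of NTS and no member of 4 was called higher, beside 5.46% of genes, while 3 were called lower, beside 11.3%. Between the FXYD2 sets NTS was 41.9-fold lower (26.7 to 70.0) at E31 than at E28, with 2.19% of genes called lower.

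The PAX8 set carried SST at both mesonephric stages. SST had 16.2 CPM in PAX8 barcodes against 5.51 in the others at E28 (2.93-fold, 2.48 to 3.49), the 1 of 5 members called higher, beside 2.84% of genes, with NPPB and EDN3 called lower, beside 6.45%. At E31 it had 40.9 against 10.5 CPM (3.88-fold, 3.47 to 4.33), again the 1 of 5 called higher, beside 3.58% of genes, with NPPB, EDN1 and EDN3 called lower, beside 6.71%. At E24, 3.49 against 2.98 CPM was no difference beyond counting error, and none of 4 measured members was called higher in that set, beside 1.29% of genes, while all 4 were called lower, beside 16.3%.

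The barcode with the most SST at E28, 90 UMIs, lay outside the PAX8 set, and without it the ratio was 4.89. With 1 PAX8 UMI as the limit the ratio was 7.65 at E28 and 6.07 at E31. PAX8 barcodes had 2.53-fold more SST (2.23 to 2.87) at E31 than at E28, beside 0.81% of genes called higher. The FXYD2 set did not stand apart for SST, at 12.4 against 8.67 CPM at E28 and 22.7 against 18.3 CPM at E31.

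NPPB was called higher in the KRT19 sets of E24, E28 and E31. In ACTA2 barcodes it was called higher at E24 and E31, and the E24 call did not hold under all limits. In the KRT19 set it had 16.9 against 1.76 CPM at E24 (9.61-fold), 29.96 against 4.71 CPM at E28 (6.37-fold, 5.31 to 7.64) and 21.7 against 8.19 CPM at E31 (2.64-fold, 2.23 to 3.12). At E28 and at E31 NPPB was the 1 of 5 measured members called higher, beside 1.01% and 0.813% of genes. SST was called lower at both, and EDN1 at E31, beside 7.14% and 6.15%. With other markers barred the NPPB ratios at E28 and E31 were 9.78 and 4.79. At E37 the sets held too few NPPB UMIs, and none of 4 measured members was called higher in KRT19 barcodes, beside 1.98% of genes, while all 4 were called lower, beside 10.6%.

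The broad KRT19 set of E24 took 4 of 7 members, beside 8.38% of genes: NPPB, CGA (11.5 against 1.20 CPM, 9.61-fold), EDN3 (14.2 against 2.94 CPM, 4.82-fold) and SST (4.14 against 1.65 CPM, 2.51-fold). With barcodes of any other marker barred from the set, the ratios were 5.00 for NPPB, 2.12 for CGA and 1.92 for EDN3, which ended the EDN3 call. With 1 KRT19 UMI as the limit the CGA ratio was 15.5. The SST ratio was 1.90, and its call ended, where 1 UMI of KRT19 was enough, and 5.14 without the richest barcode. NPPA was the 1 member called lower in this set, at 4.77 against 12.1 CPM, beside 4.17% of genes.

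The ACTA2 set of 386 barcodes at E24 had 31.7 against 7.10 CPM of NPPA (4.47-fold, 3.74 to 5.31) and 21.2 against 9.42 CPM of NPPB (2.25-fold, 1.82 to 2.75), the 2 of 6 measured members called higher, beside 1.66% of genes. NTS, CGA and EDN3 were called lower there, beside 10.8%. Of these ACTA2 barcodes, 68.7% were also in another marker set. In the 67 with no UMI of the other markers NPPB was lower than elsewhere, at 4.02 against 9.96 CPM, and with 1 UMI of ACTA2 as the limit or without doublets its ratio was 1.37 or 1.61 and no call. NPPA had 38.8 against 7.95 CPM in those 67 barcodes, from 29 UMIs.

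At E31 the ACTA2 set, 86 barcodes, had 106 against 8.30 CPM of NPPB (12.8-fold, 10.5 to 15.5), the 1 of 3 measured members called higher, beside 0.714% of genes. SST was called lower there, beside 19.6%. The ratio was 4.11 with 1 ACTA2 UMI as the limit, 26.5 with 3, and 35.6 with other markers barred. In the 56 ACTA2 barcodes of E28 there were 21 NPPB UMIs, too few for a call, and none of 3 measured members was called higher, beside 0.765% of genes, while NTS and SST were called lower, beside 23.6%. NPPB was 4.17-fold higher (2.61 to 6.97) in the E31 than in the E28 ACTA2 set, beside 0.806% of genes. At E37 the ACTA2 set held 1 NPPB UMI in 76 barcodes, with none of 3 members called higher, beside 2.56% of genes, and NTS and SST called lower, beside 25.9%. EDN1 had 78.9 against 7.37 CPM in that set, from 47 UMIs and so short of the 50 for a call.

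FOXF1 barcodes were numerous at E24 alone, 347 of them, of which 89.0% were also in another set. EDN3 had 29.8 against 8.12 CPM there (3.67-fold, 3.05 to 4.39), the 1 of 6 measured members called higher, beside 1.6% of genes. NPPA, NPPB and NTS were called lower there, beside 13.5%. With other markers barred, 14 barcodes and 3 EDN3 UMIs were left. CGA had 12.7 against 6.50 CPM, 1.96-fold and so short of a call. In the 26 FXYD2 barcodes of E24, under the size limit, CGA had 120 against 6.11 CPM, with UMIs in 15 of them.

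**Figure D4:**
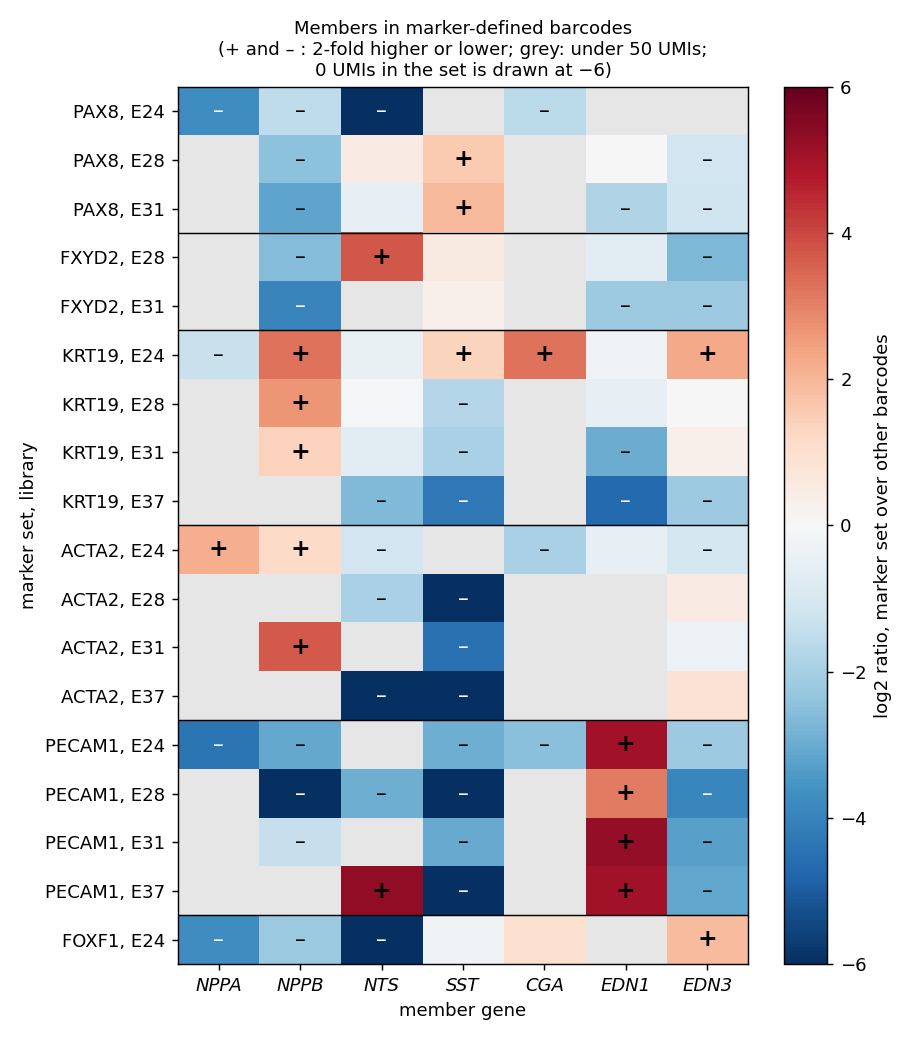
The log2 ratio of each member between a marker set (at least 2 UMIs of the marker, at least 50 barcodes) and all other barcodes of the library; grey cells hold under 50 UMIs in the higher group, + and – mark a 2-fold ratio, and 0 UMIs in the set is drawn at the lower end of the scale. EDN1 is higher in all 4 PECAM1 sets, SST in 2 PAX8 sets and NPPB in 3 KRT19 sets, and SST, EDN3 and NTS each change direction within 1 marker.

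**Figure D5:**
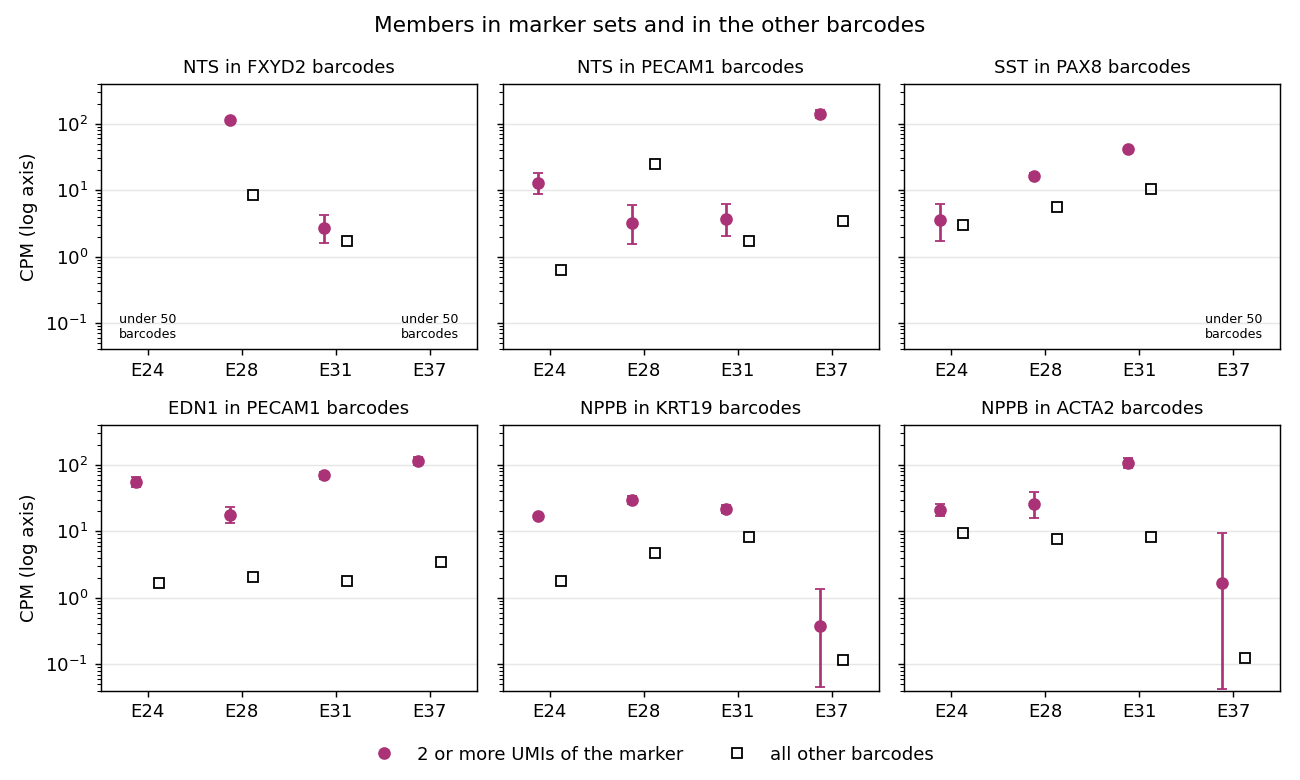
CPM (log axis) of 4 members in barcodes with at least 2 UMIs of a marker (filled, with exact Poisson 95% intervals) and in all other barcodes (open) at each stage. NTS in FXYD2 barcodes stands at 113 at E28 and 2.69 at E31, and NTS in PECAM1 barcodes at 3.19 at E28 and 141 at E37.

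The receptors and processing enzymes of these peptides were read from lists. Of these, FURIN, EDNRB, CORT and the chorionic beta subunits had no gene row by these symbols and could not be measured. Of 7 natriuretic partners measured, 1 was called higher and 1 lower at E28 against E24, beside 15.5% and 6.23% of all genes. None was called at E31 against E28, beside 1.15% higher and 2.66% lower. At E37 against E31, 2 were called higher and 1 lower, beside 8.31% and 8.24%. NPR1, the receptor for NPPA and NPPB, had 4.26, 18.3, 14.2 and 9.45 CPM over the stages. It was highest in the endothelium-like cluster of E24 (87.8 CPM) and of E31 (104 CPM) and in podocyte-like clusters of E28 (205 CPM) and E37 (174 CPM, 22 UMIs), not in the NPPA or NPPB clusters. NPPC, the third natriuretic peptide gene, was in neural-tube-like cluster 9 at E24 (55.0 CPM) and in podocyte-like clusters at E28 and E31 (102 and 110 CPM), and was 12.7-fold lower at E37 than at E31.

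Of the 5 endothelin partners, 2 were measured in each library. At E28 against E24, 1 was called higher and none lower, beside 15.5% and 6.23% of all genes. None was called at E31 against E28, beside 1.15% higher and 2.66% lower. At E37 against E31, 1 was called higher and none lower, beside 8.31% and 8.24%. EDNRA, the receptor that prefers EDN1, had 11.3, 17.9, 18.5 and 37.0 CPM, and was 2.004-fold higher at E37 than at E31. Its top clusters were crest-like at E24 and led by TGFBI, PCOLCE and SNAI2 at E28 or TAGLN, COL3A1 and TGFBI at E31, which held 181 CPM of EDN3 at E28 and 63.2 CPM at E31. ECE1, the converting enzyme, had 19.4, 43.8, 38.5 and 20.6 CPM, and was 2.26-fold higher at E28 than at E24. At E37 it was highest in the EDN1-rich cluster 23, at 238 CPM.

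The neurotensin receptors NTSR1 and NTSR2 had at most 0.160 CPM in any library, whereas SORT1, a sorting receptor that binds neurotensin, had 8.20, 10.02, 8.61 and 6.07 CPM. SORT1 and NMU were the 2 of 6 neurotensin list genes measured, and neither was called at any step. Over the 3 steps 15.5%, 1.15% and 8.31% of all genes were called higher, and 6.23%, 2.66% and 8.24% lower. Of 5 somatostatin receptors 2 were measured, and SSTR2 was the one above 2 CPM, with 2.15 CPM at E24, 1.04 at E28, 0.595 at E31 and 3.21 at E37. It was highest in E24 cluster 10 (198 CPM) and E37 cluster 20 (102 CPM), both of which also held SST. It was called lower at E28 than at E24 (2.07-fold), beside 6.23% of all genes, and higher at E37 than at E31 (5.39-fold), beside 8.31%. SSTR3, the other receptor measured, was called 29.1-fold higher (10.8 to 110) at E28 than at E24, beside 15.5%, with 4 UMIs at E24. At E37 it was called 2.04-fold lower than at E31, beside 8.24%. Its top clusters were podocyte-like cluster 14 at E28 (18.2 CPM, 13 UMIs) and podocyte-like cluster 7 at E31 (6.82 CPM). Among 8 glycoprotein hormone partners, GPHA2, another alpha subunit, was the most abundant at 3.57, 7.49, 9.58 and 1.91 CPM, and was 5.00-fold lower at E37 than at E31.

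Of 13 prohormone-processing and granule genes, 5, 6, 6 and 8 reached 10 CPM over the 4 stages. Convertase PCSK5, the processing enzymes CPE, CPD and PAM, and the granule protein SCG5 did so in all libraries. PCSK1 and PCSK2, the convertases of endocrine granules, stayed at or below 1.17 CPM. CHGA, a granule protein, had 6.76e+03 CPM in the SST-rich cluster 6 of E37 and 135 CPM in that library, against 1.40 to 6.08 CPM in the 3 others. At E28 against E24, 5 of 12 measured list members were called higher and 3 lower, beside 15.5% and 6.23% of all genes. At E37 against E31, 4 of 10 were called higher and 1 lower, beside 8.31% and 8.24%.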

How the data were processed

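The deposited tables hold counts (unique molecular identifiers per gene and barcode), made by the authors with Cell Ranger 2.1.0 per the submitters' processing notes. The genome build was not given in the sources used here, nor was the annotation, and the labels' protocols name both v2 and v3 reagent kits. Per the deposited files, gene rows carry symbols, and 1 row without a symbol held 0 counts. Barcodes with under 500 genes (5, all at E37) were left out. The deposited matrices are filtered, and nothing in the labels says that doublets were removed. Scrublet (scanpy 1.11.5) marked 0%, 1.11%, 0.105% and 0.0945% of barcodes, so it had not worked in 3 libraries. All barcodes were kept, and the alternative left out the highest scores at 0.8% per 1000 barcodes.

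CPM were computed on library totals of 115332663, 62477350, 72233442 and 40219599 counts. Intervals were exact Poisson, Clopper-Pearson or conditional binomial at 95% (scipy 1.17.1), and they cover counting error only. With 1 library per stage no test was made. Shares thinned to 2000 counts are expectations, and no barcode was shallower. Clusters came from 2000 variable genes without the members, 30 components, 15 neighbours and Leiden resolution 1. Names from markers were given after the clusters had been seen. The ratios and their intervals were checked on simulated Poisson counts with known folds. Such counts do not carry the concentration of UMIs in a few barcodes, so the check covers counting error only.

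Named genes are the 7 members, list genes that reach 10 CPM in a library, the 3 nearest profiles over clusters and the 5 genes with the highest lower bound in member-positive barcodes, plus genes that lead a cluster. Some of these genes are not reported here. Receptors, subunits and markers of other cell types below that level are named where a count of few is given, chosen after their values were seen. The members and lists were chosen with earlier results of these data known. Alternatives were another scaling, other minimums and folds, other marker limits, doublets left out, other resolutions and a total without globin and ribosomal genes. The comparison of the same marker set between stages, and the removal of each member's richest barcode, were added after seeing the data. The neighbour of a gene was read from RefSeq's T2T-MFA8v1.1, whose coordinates are not used.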

Additional observations from a re-analysis of the deposited data

Results flagged for a closer look

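5 results had opposite directions in the same marker set at 2 stages. NTS was 40.4-fold higher in PECAM1 barcodes than in the others at E37 and 7.65-fold lower at E28. SST was 2.51-fold higher in KRT19 barcodes than in the others at E24, and 3.35-fold lower at E28, 3.85-fold lower at E31 and 19.3-fold lower at E37. EDN3 was 4.82-fold higher in KRT19 barcodes than in the others at E24 and 4.59-fold lower at E37. The difference between stages was not tested, since each stage has 1 library. KRT19 barcodes made up 49.1% of the E24 library and 9.63%, 9.47% and 10.5% of the E28, E31 and E37 libraries, and the part of this in the SST and EDN3 results was not tested. No sample could be compared with others of its group, as each group holds 1.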

How the results depend on the processing

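With 1 library per stage no library could be left out in turn. No paired analysis was possible because no 2 groups share a replicate pairing and no test was made. The members higher and lower at E28 against E24, 3 and 2, were the same in number under all 8 alternatives. At E31 against E28 the number higher was 1, and became 2 without a minimum count, at 1.5-fold and with doublets left out, and 0 at 3-fold. At E37 against E31 the number higher became 2 at 1.5-fold, and the number lower, 2, became 4 without a minimum count and 1 at 3-fold. Marker sets gave 18 calls of a higher member, and 16 to 18 under other limits. These totals include calls absent from the main setting, so they do not show how many of the 18 stayed. With other markers barred, EDN3 in KRT19 and FOXF1 and NPPA and NPPB in ACTA2 barcodes of E24 were no longer called higher. Nor was EDN1 in PECAM1 barcodes of E28. The 47 lower calls were not recounted. With barcodes of other markers barred, 3 E24 log2 ratios turned round, to -1.09 for NPPB in ACTA2, 0.36 for NPPA in FOXF1 and 1.97 for NTS in FOXF1 barcodes; the cause was not tested, and 67 and 14 barcodes were left in those sets. Of 21 pairs of member and library, 6 had over 50% of their UMIs in 1 cluster, against 8 at resolution 0.5, 4 at resolution 2 and 5 without doublets. Globin and ribosomal genes took 25.6% to 26.6% of counts, and leaving them out of the total moved 21 of 28 levels, and none of the 21 stage ratios, past the counting interval. Depth limits NPPA and CGA after E24 and NPPB at E37, where 0 to 6 UMIs were counted.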

Other observations

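Some other peptide genes were highest in clusters that were also highest for a member, or held most of its UMIs. Barcodes that held both were not counted. Of 45 further peptide hormone genes in the tables, 4, 2, 2 and 2 reached 10 CPM at E24, E28, E31 and E37. PENK, the enkephalin precursor, had 11.8 CPM at E24, and its highest cluster was the FGF17- and HES7-led cluster 6 that held most NPPA, at 124 CPM. NPY, a neuropeptide of neurons and chromaffin cells, was also highest there, at 43.4 CPM, as was PRL at 28.5 CPM. At E28, E31 and E37 these 3 genes were at or below 3.01 CPM.

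APELA, a ligand of the apelin receptor, had 14.9 CPM at E24 and peaked at 190 CPM in cluster 16, which is led by HCRT, the orexin precursor, NKX2-8 and FOXA2. TAC1, the substance P precursor, had 13.7 CPM at E37 against 0.955 CPM at E31, and its highest cluster, 27 at 104 CPM, was also the highest for EDN3. AGT, angiotensinogen, had 13.02, 36.9, 23.3 and 10.3 CPM over the 4 stages and peaked in hepatocyte- or yolk-sac-like cells at E24 (562 CPM) and E37 (704 CPM) and in mesonephric-tubule-like clusters at E28 and E31 (292 and 296 CPM). EPO, erythropoietin, was highest in the GABRP- and VTCN1-rich cluster 27 at E24 (87.4 CPM) and in hepatocyte- or yolk-sac-like cluster 22 at E37 (131 CPM).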
